A study of Homo sapiens with 12 samples.

Results

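Collagen genes were followed here in newly made RNA of U2OS cells, an established human osteosarcoma line, in which the MycER chimera could be switched on and the kinase CDK12 was targeted by an shRNA. The members were all rows of the count table whose gene symbol has the form of a collagen chain (COL, a type number, A, a chain number), which gave 44 of 23434 rows. The rule used the name alone and no measured value, but it was chosen with earlier results of these data known. The RNA was labelled with 5-ethynyl-uridine (EU), captured and sequenced (EU-seq), so that a count reflects RNA made during the pulse and not the stored transcript. Each of the 4 groups held 3 libraries, and all cells expressed MycER and carried an shRNA induced with 1 µg/mL doxycycline. The shNT cells carried a non-targeting shRNA without OHT (4-hydroxytamoxifen, the ligand of the MycER chimera). The shNT_OHT cells carried the same shRNA and received 300 nM OHT for 40 h. The shCDK12 cells carried the shRNA against CDK12 without OHT, and the shCDK12_OHT cells carried it and received the same dose of OHT. All groups were then held for 8 h in 100 ng/mL nocodazole, shaken off, released for 12 h and given 0.5 mM EU over the last 2 h, and 40 µg of their RNA was mixed with 10 µg of murine RNA before capture. Cells released in this way are a synchronised population, and the sources used here do not say whether the lines were clonal, how many shRNA sequences were used, or whether the replicates were separate cultures, so that p-values measure only the spread between these libraries.

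Collagens are the chains of the extracellular matrix that wind around each other into a helix rich in glycine and hydroxyproline. Fibrillar collagens such as types I, III and V build the cable-like fibrils of bone, skin and tendon, the type IV chains form the sheet of basement membranes, the type VI chains form beaded filaments around cells, and the fibril-associated chains decorate the surface of fibrils. Several types are made of different chains encoded by separate genes, and the genes of type IV chains lie head to head in pairs. Bone-forming cells are known for type I collagen, and osteosarcoma lines differ in how much of it they make.

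Libraries held between 1251695 and 10447836 counts (median 4770829), and the shNT_OHT group was the shallowest, from 1251695 (its replicate 2) to 3666406, so that 1 count was worth 0.09304 to 0.8322 CPM across libraries. Every library correlated best with another of its own group (Pearson r of log values 0.9227 to 0.9935 within groups and 0.8333 to 0.9449 between them, over 11699 genes). Newly made RNA of the targeted gene did not follow every label. The stored CDK12 transcript and its protein were not measured, so depletion of CDK12 cannot be judged from these counts. CDK12 stood at 301.8 ± 20.3 CPM (counts scaled to a common library size with TMM, mean ± SD, n = 3) in shNT, 403 ± 44.9 in shNT_OHT, 291.6 ± 14.3 in the libraries labelled shCDK12 and 210.7 ± 6.24 in those labelled shCDK12_OHT. It was lower in shCDK12_OHT than in shNT_OHT (log2 fold change -0.90, edgeR adjusted p = 9.124e-05), but not in shCDK12 against shNT (-0.04, edgeR adjusted p = 0.724), so groups are named below as the libraries are labelled. Of 7 mesenchymal and osteoblast markers, BGLAP, IBSP and SP7 had group means from 0 to 1.616 CPM, while VIM, RUNX2 and SPARC were abundant. The 7 markers summed to 686 to 765 CPM in shNT, 581 to 627 in shNT_OHT, 319 to 341 in shCDK12 and 396 to 413 in shCDK12_OHT. The 4 epithelial, blood and endothelial markers checked summed to 9.74 to 12.1, 9.99 to 12.8, 14.5 to 16 and 10.6 to 11.3 CPM in the same order, with EPCAM at 8.082 ± 1.39 CPM in shCDK12 and 0.7975 ± 0.854 in shNT and with PTPRC and PECAM1 below 0.5 on average in each group. These sums moved with several collagen genes described below, and their part in those differences was not tested. The counts come from bulk cells, so fewer cells making a chain and less RNA of it per cell cannot be told apart.

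A few collagen genes made most of the collagen RNA of these cells. The 44 members together held 1037 to 1150 CPM in shNT, 759.8 to 918.7 in shNT_OHT, 638.8 to 682.9 in shCDK12 and 699 to 712.9 in shCDK12_OHT, with no overlap between any of the groups. Per length of transcript in shNT, COL1A1, the main chain of type I collagen, was highest at 27 ± 1.66 CPM per kb (mean ± SD, n = 3), followed by COL4A2 at 18.4 ± 1.67, COL6A3 at 18.4 ± 2.39, COL12A1, a fibril-associated chain, at 17.5 ± 0.906, and COL4A1 at 14.9 ± 1.21. COL4A2, COL6A3 and COL12A1 did not differ beyond their spread. These levels divide by the length of 1 reference transcript, and it is not stated whether intron reads were counted, so they rank genes only roughly. COL1A2, the partner chain of COL1A1 in type I collagen, had between 0 and 5 counts in every library, although COL1A1 had 100 to 845. All 4 groups thus had RNA of COL1A1 with almost none of its partner.

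**Figure D1:**
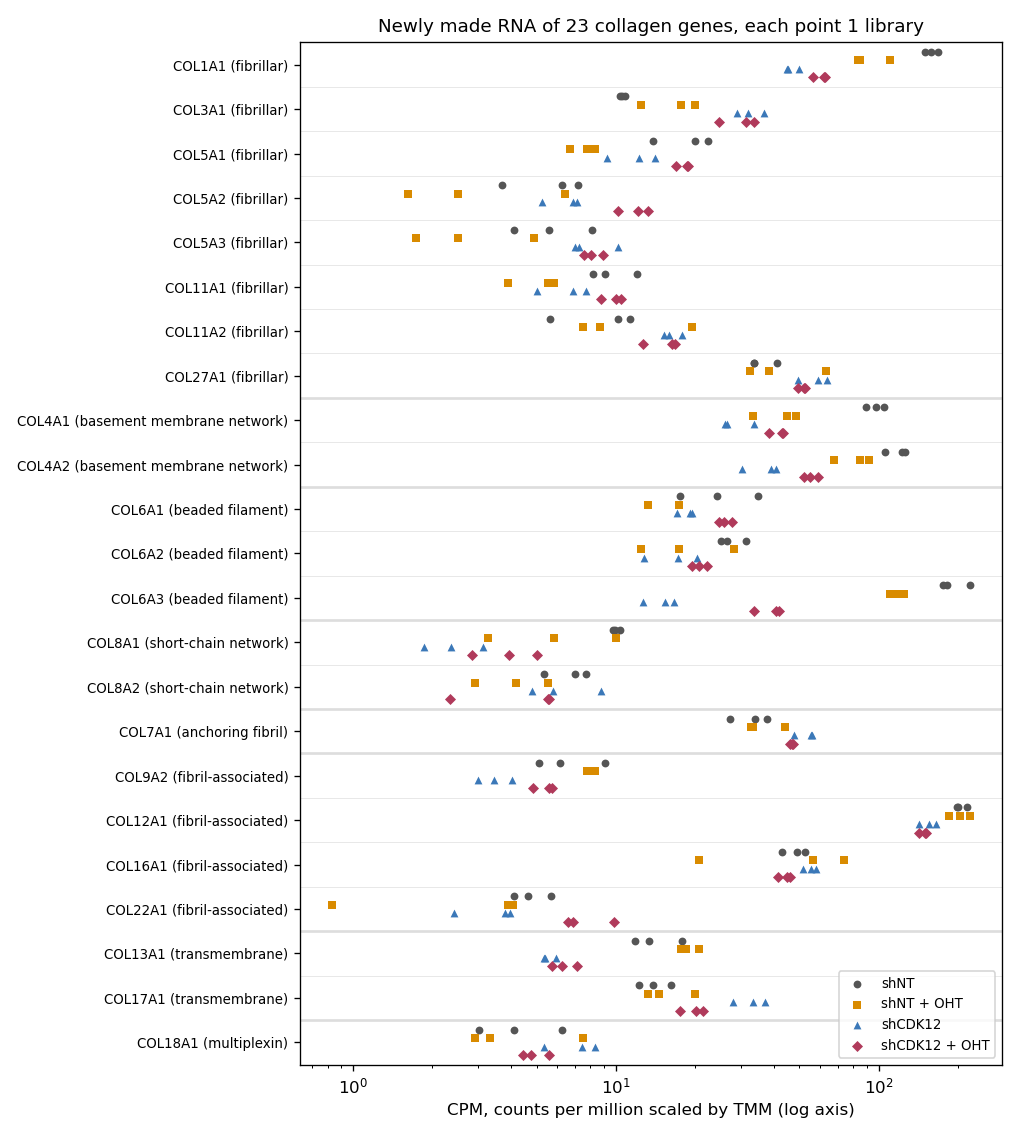
CPM (log axis) of the 23 collagen genes that entered at least 1 test, 1 point per library, coloured by group and ordered by collagen class. COL6A3 runs from 176 to 223 CPM in shNT down to 12.7 to 16.6 in shCDK12, while COL12A1 stays between 142 and 223 CPM in every library.

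Of the 44 members, 23 passed the filter of a mean normalised count above 32 in at least 1 comparison, 15 in all 5 and 8 in some. The other 21 were tested in none and never exceeded 7.83 CPM in a library, among them COL2A1 of cartilage, COL10A1 of hypertrophic cartilage, COL1A2, and the type IV chains COL4A3 to COL4A6. In the 4 comparisons between groups, 19 members were called at least once (edgeR's quasi-likelihood test, Benjamini-Hochberg adjusted p under 0.05 over all genes tested), and 4 of them in every comparison. The matching shares of all genes were not counted. Calls were common, reaching 31.3% higher and 30.6% lower of all genes in shCDK12 against shNT without OHT. All fold changes below are log2 values with their standard error.

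After activation of MycER in shNT cells, newly made RNA of 5 collagen genes was lower relative to other genes, and that of none was called higher. All values here are relative in this way, as a change in total RNA synthesis cannot be seen in these counts. Among the 15 members tested, 0 were higher and 5 were lower, against 9.11% higher and 8.27% lower of the 10272 genes tested. The members' median was -0.05 and that of all genes -0.03 (log2). The 5 were both abundant type IV chains, COL4A1 (Entrez 1282) and COL4A2 (1284), the fibrillar chains COL1A1 (1277) and COL5A1 (1289), and the type VI chain COL6A3 (1293). COL5A1 passed the filter only through its shNT level.

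COL4A1, a basement membrane chain, read 89.3, 97.6 and 105 CPM in shNT and 48.4, 33.3 and 44.9 in shNT_OHT. Its level with OHT was below that of every shNT library, and it fell by 1.21 ± 0.173 on the log2 scale (edgeR adjusted p = 0.000432). Its partner COL4A2 read 126, 123 and 106 CPM in shNT and 91.9, 67.4 and 85.2 in shNT_OHT. Again the groups did not overlap, and the log2 fold change was -0.56 ± 0.154 (edgeR adjusted p = 0.0215). COL1A1 read 150, 159 and 169 CPM in shNT and 111, 83.2 and 84.9 in shNT_OHT, with replicate 1 of shNT_OHT nearest to the untreated level (log2 fold change -0.80 ± 0.147, edgeR adjusted p = 0.00238).

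COL5A1, a minor chain that sets the width of collagen fibrils, read 22.4, 20 and 13.8 CPM in shNT and 7.79, 8.32 and 6.67 in shNT_OHT. The lowest shNT library was still above all treated ones (log2 fold change -1.39 ± 0.315, edgeR adjusted p = 0.00823). COL6A3, the longest of the common type VI chains, read 176, 182 and 223 CPM in shNT and 117, 125 and 111 in shNT_OHT. The treated libraries lay close together below the untreated ones (log2 fold change -0.76 ± 0.137, edgeR adjusted p = 0.0022). COL6A1 read 17.6, 24.3 and 34.9 CPM in shNT and 13.3, 13.3 and 17.4 in shNT_OHT without passing the test (edgeR adjusted p = 0.0845), and COL6A2 read 31.2, 26.6 and 25.1 against 28.2, 12.5 and 17.4. COL12A1, the most abundant fibril-associated chain, read 200, 198 and 217 CPM in shNT and 185, 223 and 205 in shNT_OHT, so that its groups overlapped fully. The call of COL4A2 was lost without replicate 1 or 2 of shNT or replicate 3 of shNT_OHT (edgeR adjusted p up to 0.11), and that of COL5A1 without replicate 1 of shNT (edgeR adjusted p = 0.0558). Without that shNT library 3 members were called in all, and 753 of all genes, against 1785 in the main fit.

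In the libraries labelled shCDK12, OHT came with the opposite change in these genes. Of 21 members tested in shCDK12_OHT against shCDK12, 8 were higher and 2 lower, against 25.5% higher and 23.6% lower of 12519 genes. The median log2 fold change was 0.21 for the members and 0.02 for all genes. This comparison shares no library with that in shNT, and the 5 genes that were lower with OHT in shNT made up 5 of the 8 that were higher here. How many of all genes made the same turn was not counted, so the turn cannot be called particular to collagen genes. COL22A1, a fibril-associated chain of tissue junctions, passed the filter only through its shCDK12_OHT level.

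COL6A3 read 16.6, 12.7 and 15.4 CPM in shCDK12 and 41.8, 33.5 and 40.7 in shCDK12_OHT, a log2 fold change of 1.39 ± 0.151 (edgeR adjusted p = 3.937e-07). All treated libraries stood above all untreated ones, yet below every library of either shNT group. COL4A1 read 33.5, 26.6 and 26 CPM in shCDK12 and 43, 38.3 and 43.4 in shCDK12_OHT (log2 fold change 0.54 ± 0.13, edgeR adjusted p = 0.0018). COL4A2 read 30.1, 39.1 and 40.7 CPM and then 54.6, 52 and 58.8 (log2 fold change 0.57 ± 0.12, edgeR adjusted p = 0.000652). Both type IV genes thus rose by about the same amount, without overlap of their groups. COL1A1 moved from 45.1, 44.9 and 49.7 CPM to 62.3, 61.8 and 56.5 (log2 fold change 0.37 ± 0.102, edgeR adjusted p = 0.00524). COL5A1 moved from 12.3, 9.27 and 14.1 CPM to 18.7, 17 and 18.8 (log2 fold change 0.63 ± 0.176, edgeR adjusted p = 0.00555), and its partner COL5A2 from 5.22, 7.09 and 6.88 CPM to 12.1, 10.2 and 13.3 (0.84 ± 0.212, edgeR adjusted p = 0.00266). The groups of these 3 fibrillar genes did not overlap either. COL6A1 rose from 19.2, 19.5 and 17.1 CPM to 27.7, 25.7 and 24.6 (log2 fold change 0.48 ± 0.14, edgeR adjusted p = 0.00807), while COL6A2 read 20.4, 17.2 and 12.8 and then 20.7, 22.3 and 19.5 CPM and did not pass the test (edgeR adjusted p = 0.109). COL22A1 rose by 1.14 ± 0.273 (edgeR adjusted p = 0.00182).

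With OHT in shCDK12, 2 members fell, a transmembrane collagen and a fibril-associated chain. COL17A1, a transmembrane collagen of epithelial hemidesmosomes, read 37, 33.4 and 27.9 CPM in shCDK12 and 20.2, 17.5 and 21.5 in shCDK12_OHT (log2 fold change -0.74 ± 0.146, edgeR adjusted p = 0.000312). Its level came down towards the 12.3 to 16.2 CPM of shNT without overlapping it. EPCAM, an epithelial adhesion gene, also fell here, from 8.082 to 2.604 CPM on average (-1.64, edgeR adjusted p = 3.696e-05). CDH1, the other epithelial marker checked, did not fall, with 6.15 and then 7.522 CPM on average (0.34, edgeR adjusted p = 0.297). Their part in the change of COL17A1 was not tested. EPCAM passed the filter only through its shCDK12 level. COL16A1, of the same fibril-associated class as COL22A1, which rose, read 55.1, 51.6 and 57.9 CPM and then 41.6, 44.9 and 46.1 (-0.31 ± 0.104, edgeR adjusted p = 0.0188), and this call was lost in 6 of 13 alternatives (edgeR adjusted p up to 0.255). The call of COL5A1 was lost without replicate 2 of shCDK12 (adjusted p = 0.0563 by edgeR) and that of COL6A1 with all 12 libraries in one fit (0.0683), and without replicate 2 of shCDK12 8 members were called higher and 5 lower. With every library thinned to the depth of the smallest, 3 of 10 members tested were called. Over all genes these 2 settings called 6080 and 3243, against 6139 in the main fit. After thinning, COL1A1 and COL4A1 missed the threshold at adjusted p = 0.186 and 0.101 by edgeR.

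Tested directly, the response to OHT differed between the shRNAs for 10 of 18 members: 8 had a more positive response in shCDK12 and 2 a more negative one, against 23.2% and 21.9% of 11699 genes. The median difference of the members was 0.90 on the log2 scale and that of all genes 0.04. COL6A3 had the largest difference at 2.11 ± 0.2 (edgeR adjusted p = 6.311e-08), then COL5A1 at 2.00 ± 0.343 (8.360e-05), COL4A1 at 1.70 ± 0.21 (1.860e-06) and COL11A1 at 1.56 ± 0.41 (0.00402). For COL6A3, COL5A1, COL4A1, COL1A1 (1.13 ± 0.179, edgeR adjusted p = 3.437e-05) and COL4A2 (1.10 ± 0.199, edgeR adjusted p = 0.000146), the response was called lower in one arm and higher in the other. COL6A1 differed by 1.21 ± 0.314 (edgeR adjusted p = 0.00376) and COL5A2 by 1.396 ± 0.526 (0.0359). The call of COL5A2 was lost in 7 of 15 alternatives, and its difference ranged from 0.93 without replicate 1 of shNT_OHT to 2.38 without replicate 3. Without replicate 2 of shNT_OHT, 7 members had a more positive and 4 a more negative response. Over all genes 5583 were called then, against 5271 in the main fit.

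COL11A1, a fibrillar chain of cartilage that can assemble with type V chains, read 12, 9.06 and 8.21 CPM in shNT, 3.9, 5.83 and 5.51 in shNT_OHT, 6.88, 7.71 and 5.02 in shCDK12 and 10.5, 8.75 and 10 in shCDK12_OHT. The shNT_OHT libraries were below every library of shNT and of shCDK12_OHT, which overlapped each other. COL5A2 read 3.7, 6.23 and 7.18 CPM in shNT and 1.62, 2.5 and 6.38 in shNT_OHT, with replicate 3 of shNT_OHT inside the shNT range. COL3A1, the chain of type III collagen in soft tissue, went the other way, with a difference of -0.84 ± 0.289 (edgeR adjusted p = 0.0221), and so did COL17A1 at -0.96 ± 0.295 (0.0115). COL3A1 read 10.6, 10.4 and 10.8 CPM in shNT, 20.1, 12.5 and 17.7 in shNT_OHT, 28.9, 31.9 and 36.8 in shCDK12 and 31.3, 33.6 and 24.6 in shCDK12_OHT. Its call was lost in 5 of 17 alternatives, and that of COL17A1 without replicate 3 of shNT_OHT (edgeR adjusted p = 0.0564).

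**Figure D2:**
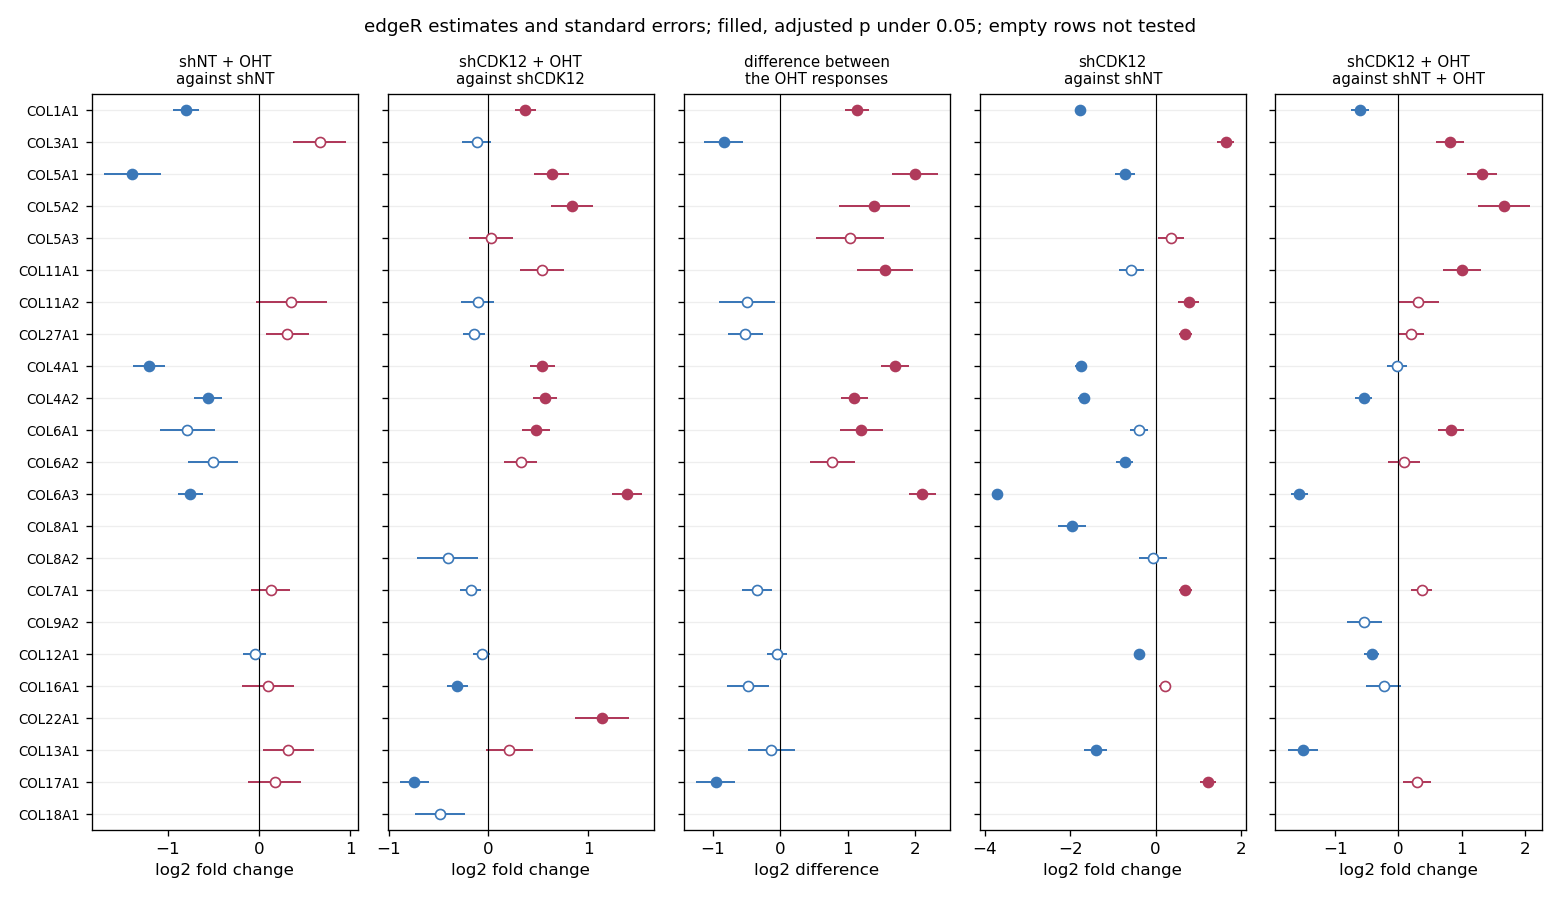
Log2 fold change with standard error for each tested collagen gene in the 4 comparisons, with the difference between the OHT responses in the middle panel; filled points passed an adjusted p under 0.05 and axes differ between panels. COL1A1, COL4A1, COL4A2, COL5A1 and COL6A3 lie left of 0 in the first panel and right of 0 in the second.

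Of the 4 comparisons between groups, the widest range among collagen genes was between shCDK12 and shNT without OHT. Of 19 members tested, 5 were higher and 9 lower, against 31.3% higher and 30.6% lower of 11718 genes. The median log2 fold change was -0.39 for the members and 0.01 for all genes. As shares, 26.3% and 47.4% of the members tested were called. COL8A1 and COL13A1 passed the filter only through their shNT level. Newly made CDK12 RNA was not lower in these libraries, as given above, and the stored transcript was not measured.

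COL6A3 stood at 176 to 223 CPM in shNT and 12.7 to 16.6 in shCDK12, which is 0.0767 times the shNT level (log2 fold change -3.71 ± 0.135, edgeR adjusted p = 7.175e-19). Its partners in the type VI filament changed far less: COL6A2 had a log2 fold change of -0.72 ± 0.198 (edgeR adjusted p = 0.00246), and COL6A1 missed the threshold, with 17.1 to 19.5 CPM in shCDK12 inside the shNT range of 17.6 to 34.9 except for 1 library. Per length, COL6A3 was the highest of the 3 chains in shNT (18.4 ± 2.39 CPM per kb, against 6.09 ± 2.07 for COL6A1 and 8.03 ± 0.922 for COL6A2) and the lowest in shCDK12, at 1.42 ± 0.19 CPM per kb against 4.43 ± 0.309 for COL6A1 and 4.88 ± 1.1 for COL6A2.

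The fibrillar and basement membrane genes split. COL1A1 (log2 fold change -1.76 ± 0.108, edgeR adjusted p = 6.734e-14), COL4A1 (-1.76 ± 0.137, 1.060e-11) and COL4A2 (-1.68 ± 0.129, 7.761e-12) fell by nearly the same amount, and no shCDK12 library of any of them reached an shNT library. COL5A1 fell by 0.71 ± 0.235 (edgeR adjusted p = 0.0109), but its groups overlapped, and the call was lost without replicate 1 of shNT or replicate 2 of shCDK12 (adjusted p up to 0.0721). COL3A1 rose by 1.64 ± 0.197 (edgeR adjusted p = 4.841e-08). COL27A1, a fibrillar collagen of cartilage, rose by 0.69 ± 0.148 (edgeR adjusted p = 0.000206), from 33.5, 33.6 and 41 CPM in shNT to 63.8, 49.2 and 58.8 in shCDK12. After thinning to the smallest library its log2 fold change was 0.38 and missed the threshold (edgeR adjusted p = 0.0921). COL11A2 rose by 0.78 ± 0.248 (edgeR adjusted p = 0.00798), from 11.3, 10.2 and 5.64 CPM to 17.8, 15.3 and 16. It read 19.5, 7.49 and 8.69 in shNT_OHT and 16.8, 12.7 and 16.3 in shCDK12_OHT. Its relative COL11A1 did not pass the test (edgeR adjusted p = 0.0869). The fibrillar class as a whole had 3 members higher and 2 lower of 7 tested.

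Outside these classes, 2 chains linked to epithelial basement membranes were higher. COL17A1 rose by 1.23 ± 0.193 (edgeR adjusted p = 3.621e-06), from 16.2, 12.3 and 13.8 CPM in shNT. COL7A1, the chain of the anchoring fibrils beneath the epidermis, rose by 0.69 ± 0.152 (edgeR adjusted p = 0.000299), from 27.3, 37.7 and 33.8 CPM to 55.8, 47.8 and 55.3. EPCAM was also higher in these libraries, as given above, while CDH1 was at 6.15 ± 2.31 CPM against 9.486 ± 1.2 in shNT. Their part in the collagen values was not tested.

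Also lower was COL8A1,  a short-chain collagen of vessel walls and the eye, which read 9.94, 10.4 and 9.74 CPM in shNT and 2.37, 3.13 and 1.86 in shCDK12 (log2 fold change -1.96 ± 0.325, edgeR adjusted p = 8.002e-06). Its partner COL8A2 read 5.32, 6.98 and 7.69 CPM and 8.78, 4.79 and 5.77, and its groups overlapped. With OHT, COL8A1 read 3.25, 9.99 and 5.8 CPM in shNT_OHT and 2.83, 5.02 and 3.94 in shCDK12_OHT, and COL8A2 read 5.52, 4.16 and 2.9 and then 5.52, 5.58 and 2.33, overlapping in both genes. COL13A1, a transmembrane collagen of cell adhesions, read 13.4, 17.9 and 11.8 CPM and then 5.93, 5.31 and 5.39 (-1.403 ± 0.272, edgeR adjusted p = 6.504e-05). COL12A1 read 200, 198 and 217 CPM and then 142, 156 and 165 (-0.39 ± 0.0917, edgeR adjusted p = 0.00057). Its change was the smallest of the 9 that fell. Without a filter on low counts 22 of 44 members tested were called, and after thinning to the smallest library 6 of 8 were. Over all genes these settings called 8463 and 4526, against 7258 in the main fit.

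With OHT, the shCDK12 and shNT arms differed in 10 of 18 collagen genes tested, 5 higher and 5 lower, against 22.7% in each direction of 11668 genes; the members' share of 27.8% each way is near that background. Without replicate 1 of shNT_OHT, 10 were higher and 5 lower of 20 tested, and after thinning to the smallest library 0 were higher and 4 lower of 8. Over all genes these settings called 6252 and 3156, against 5295 in the main fit. In the main fit the median log2 fold change was 0.14 for the members and 0.02 for all genes. COL5A2 and COL11A1 passed the filter only through their shCDK12_OHT level. This comparison shares no library with that without OHT.

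The 5 lower genes were led by COL6A3, at 111 to 125 CPM in shNT_OHT and 33.5 to 41.8 in shCDK12_OHT (log2 fold change -1.57 ± 0.139, edgeR adjusted p = 1.818e-05). COL13A1 read 18.5, 20.8 and 17.7 CPM and then 7.13, 6.23 and 5.74 (-1.51 ± 0.238, edgeR adjusted p = 0.000536). COL1A1 (-0.60 ± 0.142, edgeR adjusted p = 0.00562), COL4A2 (-0.55 ± 0.14, 0.00865) and COL12A1 (-0.42 ± 0.116, 0.0124) fell by less. COL4A1 did not follow COL4A2: it read 48.4, 33.3 and 44.9 CPM in shNT_OHT and 43, 38.3 and 43.4 in shCDK12_OHT, with the groups overlapping.

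The 5 higher genes were fibrillar chains and COL6A1. COL5A2 (log2 fold change 1.67 ± 0.412, edgeR adjusted p = 0.00712) and COL5A1 (1.32 ± 0.233, 0.00105) both rose, and COL11A1 (1.01 ± 0.3, 0.018), COL6A1 (0.84 ± 0.203, 0.00654) and COL3A1 (0.82 ± 0.218, 0.0104) rose by less. The size for COL5A2 rests on single shNT_OHT libraries, at 1.16 without replicate 1 and 2.64 without replicate 3. COL5A1 stood at 6.67 to 8.32 CPM in shNT_OHT and 17 to 18.8 in shCDK12_OHT, without overlap. COL5A1 was thus lower in shCDK12 than in shNT without OHT and higher with it. Without replicate 2 of shCDK12_OHT 5 members were called, as COL3A1, COL4A2 and COL12A1 missed the threshold and COL5A2 and COL11A1 were not tested. Calls over all genes were 3501 in that setting, against 5295 in the main fit. Without replicate 1, COL11A1 (edgeR adjusted p = 0.0767), COL4A2 (0.0507) and COL12A1 (0.075) missed the threshold, as did COL11A1 without replicate 3 (0.0602).

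**Figure D3:**
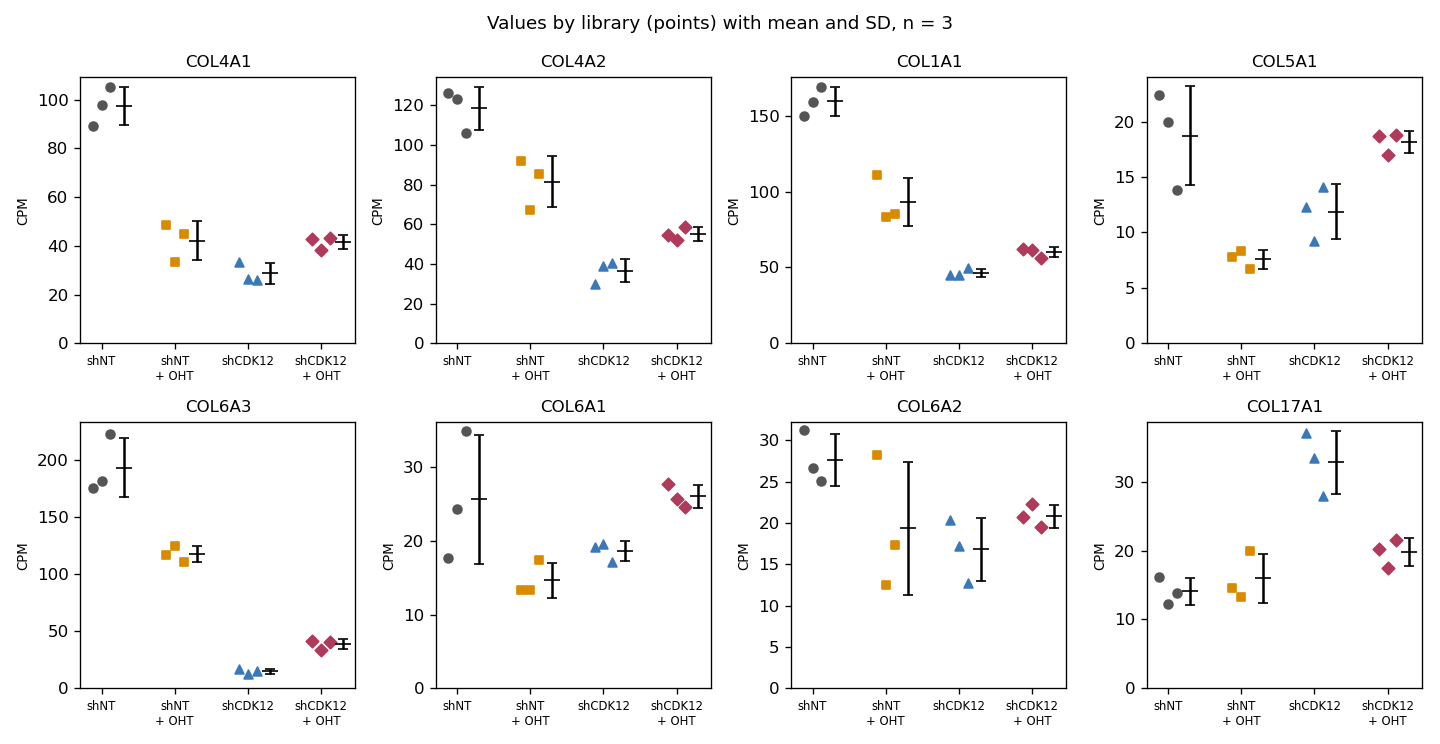
CPM per library (points) with mean and SD (n = 3) for chains of types IV, I, V, VI and XVII, each axis starting at 0. COL6A3 drops from 193.7 to 14.92 CPM on average between shNT and shCDK12, whereas COL6A1 and COL6A2 stay between 12.5 and 34.9 CPM in every library.

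The type IV genes COL4A1 and COL4A2 are transcribed away from each other from a shared stretch of chromosome 13, with 126 bases between their RefSeq start sites. It is shown because it serves both genes, one of which was called in every comparison between groups and the other in 3 of the 4. The stretch is chr13:110307158-110307283 (GRCh38.p14, plus strand), with COL4A1 starting to its left and COL4A2 to its right, and capitals mark a CCAAT box and a GC box (GGGCGG):
COL4A1 and COL4A2, between the starts: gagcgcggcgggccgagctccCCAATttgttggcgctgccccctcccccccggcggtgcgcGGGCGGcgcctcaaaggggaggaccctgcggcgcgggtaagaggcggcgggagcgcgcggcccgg

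The genes with the largest fall and with an opposite course are given with their 250 bases upstream of the start, each on its own strand. COL6A3 lies on chromosome 2 at chr2:237414165-237414414 (GRCh38.p14, minus strand), and holds none of the 4 motifs searched. COL17A1 lies at chr10:104085881-104086130 (GRCh38.p14, minus strand). It holds the letters TATAAA of a TATA box, but outside the 126 bases nearest the start, and their use was not tested. Capitals mark these letters and those of a CCAAT box read on the other strand (ATTGG):
COL6A3: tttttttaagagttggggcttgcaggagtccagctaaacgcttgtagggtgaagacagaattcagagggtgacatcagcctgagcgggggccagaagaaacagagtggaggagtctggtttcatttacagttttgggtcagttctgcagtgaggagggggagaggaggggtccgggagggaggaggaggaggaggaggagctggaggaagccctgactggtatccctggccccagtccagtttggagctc
COL17A1: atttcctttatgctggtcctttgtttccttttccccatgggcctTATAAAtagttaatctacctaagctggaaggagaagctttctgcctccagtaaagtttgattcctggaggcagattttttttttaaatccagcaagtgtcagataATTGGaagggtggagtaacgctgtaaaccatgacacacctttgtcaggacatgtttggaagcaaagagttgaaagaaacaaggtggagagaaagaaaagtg

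Of the 44 members, 32 had an upstream window in the RefSeq table (44 windows, as some genes have several starts), and each was searched on both strands for 4 motifs. The E-box CACGTG, the sequence that MYC binds best, was in 0 of the member windows and in 6.34% of all 35116 windows of the same length. GGGCGG was in 24 member windows (54.5%, against 42.6% of all), CCAAT in 12 (27.3%, against 32%) and TATAAA in 8 (18.2%, against 10.7%). In 126-base windows GGGCGG was in 34.6% and CCAAT in 21.1% of all. These shares describe the letters near the starts and were not tested.

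Genes that modify, fold, cut, cross-link or bind collagen were read from a list of 42, all in the table. The list was also chosen with earlier results of these data known. With OHT in shNT, 1 was higher and 3 lower of 29 tested (list median -0.03 on the log2 scale, as for all genes). These shares of 3.45% and 10.3% stand beside 9.11% and 8.27% of all genes. The 3 lower ones were the cross-linking oxidases LOXL4 (-1.43 ± 0.125, edgeR adjusted p = 7.838e-06) and LOX (-1.11 ± 0.198, 0.00209) and the lysyl hydroxylase PLOD2 (-0.72 ± 0.179, 0.0142). P4HB, a subunit of prolyl 4-hydroxylase, was the 1 higher gene (0.44 ± 0.144, edgeR adjusted p = 0.0465). With OHT in shCDK12, 7 were higher (20.6%) and 5 lower (14.7%) of 34, both below the 25.5% and 23.6% of all genes. They were led by LOXL4 (1.77 ± 0.102, edgeR adjusted p = 1.088e-10), the collagen receptor DDR1 (1.13 ± 0.104, 5.595e-08) and the procollagen protease BMP1 (0.83 ± 0.149, 0.00014) among the higher, and by TLL2 (-1.30), LOXL3 (-0.69) and FKBP14 (-0.54) among the lower. TLL2 passed the filter only through its shCDK12 level.

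In shCDK12 against shNT, 6 of these genes were higher and 16 lower of 31 tested, which is 19.4% and 51.6% against 31.3% and 30.6% of all genes, and the list's median was -0.42 (all genes 0.01). LOXL4 fell most (-3.34 ± 0.101, edgeR adjusted p = 1.071e-20), then LOXL2 (-1.64) and DDR1 (-1.37); LOXL2 passed the filter only through its shNT level. LOXL3 (1.28 ± 0.262, edgeR adjusted p = 0.000118), the prolyl hydroxylase subunit P4HA1 (1.11) and the folding factor FKBP14 (1.00) rose. SERPINH1, the collagen chaperone HSP47, fell by 0.63 ± 0.096 (edgeR adjusted p = 2.569e-06). Of 5 receptor genes tested here 4 fell and 0 rose, and of 4 cross-linking genes 3 fell and 1 rose. With OHT, shCDK12 against shNT had 2 higher (6.25%) and 7 lower (21.9%) of 32, against 22.7% each way of all genes, with the receptor DDR2 at -1.74, P3H2 at -1.15 and LOXL1 at -1.15 the lowest and SEC23A (0.83) and P4HA1 (0.81) the higher ones. P3H2 and LOXL1 passed the filter only through their shNT_OHT level. The OHT response itself differed in 17 of 31, 12 more positive in shCDK12 (38.7%, against 23.2% of all genes), with LOXL4 (3.16 ± 0.16, edgeR adjusted p = 6.888e-12), DDR1 (1.5) and P4HA2 (1.38) at the top, and 5 more negative (16.1%, against 21.9%), with LOXL3 (-1.63), COLGALT1 (-1.02) and FKBP14 (-0.89) at the bottom.

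**Figure D4:**
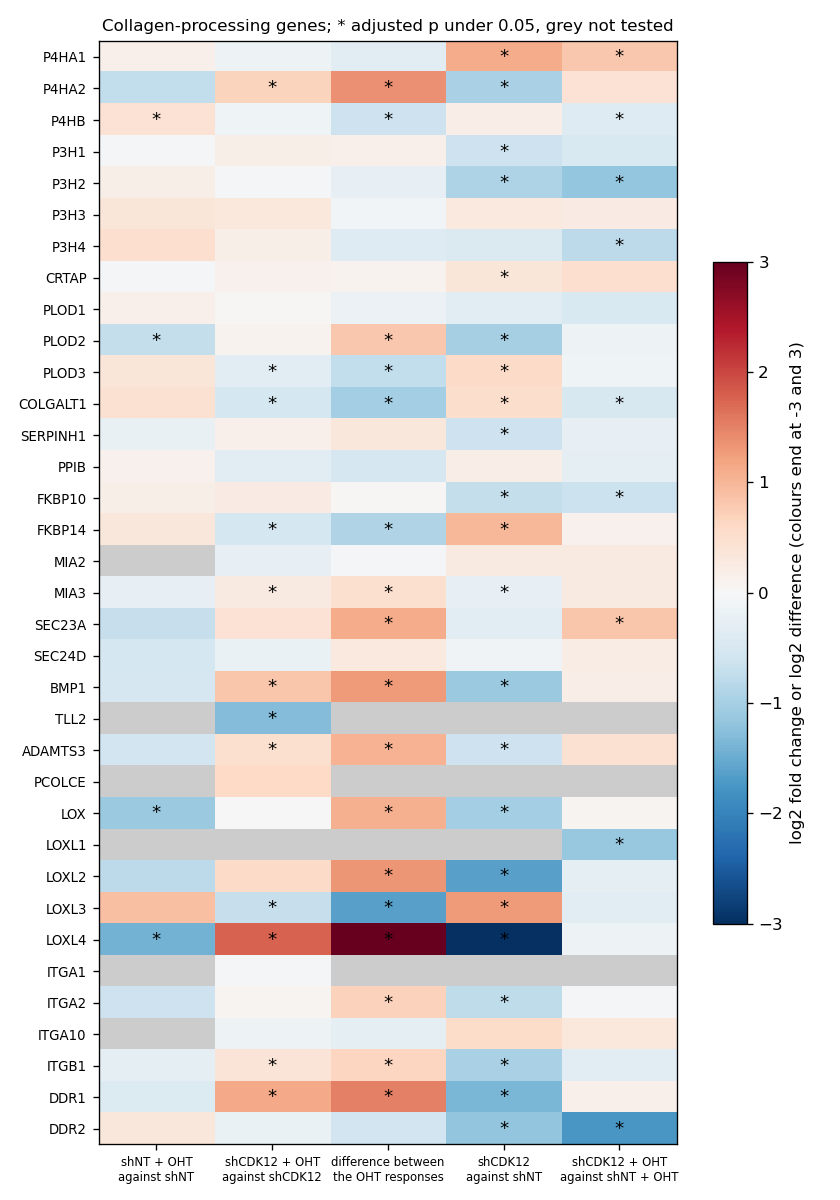
Log2 fold change (colour) of the collagen-processing genes tested in at least 1 comparison, with the difference between OHT responses in the middle column; an asterisk marks an adjusted p under 0.05 and grey marks a gene not tested there. LOXL4 changes from -1.43 with OHT in shNT to 1.77 with OHT in shCDK12, the same turn as in COL6A3 and COL4A1.

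Collagen genes are long, with a median genomic span of 72.5 kb for the 18 members in the test of the difference and 33.4 kb for all genes there. Across members, the log10 span and the log2 fold change had a Pearson r of -0.2 for OHT in shNT (15 members, -0.29 over all genes), 0.44 for OHT in shCDK12 (21, 0.12), -0.36 for shCDK12 without OHT (19, -0.05) and 0.11 with OHT (18, 0.21). For the difference between OHT responses r was 0.33 (18 members, 0.21 over all genes). These points come from the same libraries and are not independent, so the values are descriptions. Of the 23 tested members, 15 overlap another annotated gene, COL1A1, COL6A1 and COL6A3 not among them, and the use of strand in counting is not stated, so reads of COL4A1, COL4A2, COL5A1 and COL17A1 may include those of an overlapping gene.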

How the data were processed

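The authors deposited raw counts of reads per gene, by Entrez identifier, for 12 libraries. Their processing notes name hg19, STAR 2.7.5c and featureCounts 1.4.5-p1; strand setting, intron counting and the handling of murine reads are not given in the sources used here. The table has no murine rows, so a change in total RNA synthesis cannot be seen. Symbols came from RefSeq (23284 of 23434 rows). Each comparison used its 6 libraries, and the difference between OHT responses all 12, in edgeR 4.0.16 (R 4.3.3) with TMM and the quasi-likelihood test, on genes with a mean normalised count above 32 (adjusted p under 0.05 after Benjamini-Hochberg); standard errors were taken from the F statistic. The method was run on counts simulated from its own fitted model, for OHT in shNT, OHT in shCDK12 and the difference only. Such counts cannot show whether that model holds for these libraries. Members and lists were chosen with earlier results of these data known. Fold changes are given for members that passed the test, library values for the 8 largest differences in OHT response and for partner chains, and for processing genes the 3 largest each way; other members' library values and SERPINH1 were chosen after their values were seen. Replicate numbers came from the labels and were not used to pair libraries in the main fits. DESeq2 1.42.0 was among the alternatives. Sequences and spans are from GRCh38, not the build of the counts; COL1A1 and COL3A1 were not in the promoter table.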

Additional observations from a re-analysis of the deposited data

Results flagged for a closer look

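For 10 collagen genes the response to OHT differed between the shCDK12 and shNT arms by a test of the difference itself (edgeR, all 12 libraries, log2 scale, positive where the response was more positive in shCDK12). The differences were 2.11 for COL6A3 (adjusted p = 6.311e-08), 2.00 for COL5A1 (8.360e-05), 1.70 for COL4A1 (1.860e-06), 1.56 for COL11A1 (0.00402), 1.396 for COL5A2 (0.0359), 1.21 for COL6A1 (0.00376), 1.13 for COL1A1 (3.437e-05), 1.10 for COL4A2 (0.000146), -0.96 for COL17A1 (0.0115) and -0.84 for COL3A1 (0.0221). Newly made CDK12 RNA was not lower in shCDK12 than in shNT (log2 fold change -0.04), and its part in these differences was not tested. Stored CDK12 RNA and protein were not measured.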

How the results depend on the processing

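Of 49 calls of collagen genes, 33 passed the threshold under every alternative in which the gene was tested, 16 lost it under at least 1, and none changed direction. Without a filter on low counts, where more genes are tested, 22 of 44 members tested were called in shCDK12 against shNT. Thinned to the smallest library, 6 of 8 tested were called there. After thinning, 3 of 10 were called for OHT in shCDK12 and 4 of 8 for shCDK12 with OHT. For the difference between OHT responses it was 4 of 8. Over all genes, 8463 were called without the filter in shCDK12 against shNT, and 7258 in the main fit. Thinning left 4526 there, 3243 for OHT in shCDK12, 3156 for shCDK12 with OHT and 3226 for the difference. Shares of all genes were not counted under these alternatives. With all 12 libraries in one fit, 8 of 18 members tested were called for OHT in shNT, against 5 of 15 in the main fit. Calls over all genes also rose, from 1785 to 3293, and the cause was not tested. Leaving out 1 library at a time gave 3 to 6 calls for OHT in shNT and 5 to 15 for shCDK12 with OHT. Calls over all genes then ran from 651 to 2568 and from 3501 to 6252. With the replicate number as a block, 5 were called for OHT in shNT, 14 for shCDK12 without OHT and 10 for OHT in shCDK12. That setting gave 10 for shCDK12 with OHT and 11 for the difference. Over all genes it gave 1696, 7428, 6197, 4796 and 5382 calls in the same order. Deviations from the group means correlated at -0.0919 to 0.307 between libraries with the same number (2 of 18 pairs over 0.1). Between libraries with different numbers they correlated at -0.346 to 0.0998 (0 of 36 pairs over 0.1). The main fits did not pair libraries by number. Depth limits the members below the filter.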

Other observations

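Some collagen genes below the filter passed the test in the edgeR fit without it, on few counts. COL26A1 read 0.463, 0.755 and 2.05 CPM in shNT and 7.83, 3.13 and 4.46 in shCDK12, a log2 fold change of 2.41 ± 0.578 (edgeR adjusted p = 0.000147). COL4A3, a type IV chain of the kidney filter, read 0.231, 2.26 and 2.56 CPM and then 7.59, 5.21 and 6.33 (1.96 ± 0.469, edgeR adjusted p = 0.000141). Both were higher in every shCDK12 library, and with OHT in shCDK12 both were lower, COL4A3 by -1.57 ± 0.327 and COL26A1 by -1.47 ± 0.368 on the log2 scale (edgeR adjusted p = 1.303e-05 and 0.000396). COL4A5, whose gene lies head to head with that of COL4A6, read 3.24, 4.34 and 3.59 CPM in shNT, 0.325, 0 and 2.32 in shNT_OHT, 1.42, 1.88 and 0.558 in shCDK12 and 4.17, 2.98 and 2.51 in shCDK12_OHT. Its OHT responses differed by 3.04 ± 0.877 (edgeR adjusted p = 0.00312), in the same direction as for COL4A1 and COL4A2. The other type IV chains did not pass that test: COL4A3 at -0.10 ± 1.62, COL4A4 at -0.17 ± 0.811 and COL4A6 at -0.25 ± 1.16. In shCDK12 against shNT, COL4A5 was lower (-1.49 ± 0.562, edgeR adjusted p = 0.0229) and COL4A6 higher (1.75 ± 0.723, 0.04). All genes of this paragraph were chosen after their values were seen.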
